A study of Mus musculus with 19 samples.

Results

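The 10 goblet cell genes described here are Muc2, Zg16, Clca1, Fcgbp, Tff3, Spink4, Agr2, Spdef, Capn9 and Creb3l1. They are a list of symbols with no cutoff on measured values, drawn up with earlier results of these data known, and all 10 were found among the 32694 gene rows of the deposited table. All 10 also passed the filter on low values that left 18445 genes for testing, and none was below 45.7 normalized counts in any library. RNA was sequenced from the colon of 12-week-old mice in 3 groups, with 1 library per mouse. Wild-type colon came from 3 females and 2 males. Apc tumours came from 3 females and 4 males in which Villin-Cre had deleted 1 allele of Apc, a tumour suppressor that holds Wnt signalling in check. Apc/Tgif tumours, also from 3 females and 4 males, carried the same Apc deletion by Villin-Cre together with deletion of both alleles of Tgif1 and of Tgif2, related homeodomain repressors. The tumours were taken singly, and wild-type colon as tissue. Villin-Cre acts in gut epithelium, so stroma, muscle and immune cells in a tumour keep the alleles that it deletes there.

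Goblet cells are secretory cells of the gut epithelium that fill their granules with mucus and release it over the epithelial surface. In the colon the mucus is a gel built from disulfide-linked chains of Muc2, to which other secreted proteins are added and which is folded and glycosylated on its way through the endoplasmic reticulum and Golgi. The cells arise from crypt progenitors that escape Notch signalling and express Atoh1, and the Ets factor Spdef then drives their maturation. The 10 genes cover these steps: gel components (Muc2, Fcgbp, Clca1, Zg16), small secreted peptides (Tff3, Spink4), a folding enzyme of the endoplasmic reticulum (Agr2), a cytosolic protease (Capn9) and transcription factors (Spdef, Creb3l1).

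Since the 10 genes moved in the same direction in most comparisons below, their promoters were searched for binding motifs of factors of this lineage and of Tgif. RefSeq promoter sequences of GRCm38.p6, from 250 bases before to 50 bases after the start site, were found for 5 of the 10 genes: Muc2, Fcgbp, Agr2, Spdef and Capn9. The motifs were ACGTG, a core bound by Creb3-family factors, CCGGAT, an Ets core that Spdef prefers, CAGCTG, an E-box bound by Atoh1, and TGACAG, a site of Tgif and related homeodomain proteins. Both strands were searched. CAGCTG is its own reverse complement and counts once. TGACAG and CAGCTG can overlap by the letters CAG, and no matches overlapped here. The promoters of Muc2 (chr7:141690090-141690389, plus strand), Fcgbp (chr7:28070986-28071285, plus strand) and Spdef (chr17:27728902-27729201, minus strand) are shown because each holds 1 match and because they belong to the gel-forming mucin, another gel protein and a factor of the lineage. Each runs 5′ to 3′ along its gene, and capitals mark the match.
Muc2: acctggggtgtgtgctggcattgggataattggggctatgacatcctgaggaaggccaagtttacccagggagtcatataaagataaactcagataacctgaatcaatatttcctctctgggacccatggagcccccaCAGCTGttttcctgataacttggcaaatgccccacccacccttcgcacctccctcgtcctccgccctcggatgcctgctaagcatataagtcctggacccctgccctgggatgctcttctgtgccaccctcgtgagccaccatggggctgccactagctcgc
Fcgbp: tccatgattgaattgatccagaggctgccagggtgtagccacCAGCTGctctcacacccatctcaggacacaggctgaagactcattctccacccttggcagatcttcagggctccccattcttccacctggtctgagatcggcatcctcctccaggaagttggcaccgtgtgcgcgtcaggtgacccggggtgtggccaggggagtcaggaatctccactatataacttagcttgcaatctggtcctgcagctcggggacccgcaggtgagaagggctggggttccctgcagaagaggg
Spdef: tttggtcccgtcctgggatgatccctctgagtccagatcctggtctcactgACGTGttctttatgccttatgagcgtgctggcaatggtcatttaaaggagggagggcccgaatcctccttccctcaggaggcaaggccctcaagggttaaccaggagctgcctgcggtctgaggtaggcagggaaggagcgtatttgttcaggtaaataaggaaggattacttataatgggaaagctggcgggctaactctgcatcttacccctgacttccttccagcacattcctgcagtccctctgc
In Muc2 and Fcgbp the match was CAGCTG, with its first base at -112 and -208 relative to the start site. In Spdef it was ACGTG at -199. The promoter of Capn9 held CCGGAT at -99 and TGACAG at 29, both on the other strand, and that of Agr2 held no match. Of all 32851 promoters of the same length, 16.3% held CAGCTG, 19.6% ACGTG, 6.04% CCGGAT and 19.2% TGACAG. These matches are letters in a window and no measure of binding.

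Expression is given in normalized counts, which are the authors' counts per gene divided by a size factor for each library. Library totals lay between 34417808 and 44732717 normalized counts, or about 28549422 to 49087891 counts. This estimate is approximate, and 1 count was worth 0.744 to 1.44 normalized counts. A gene is called higher or lower where limma's two-sided test, adjusted by Benjamini-Hochberg over the 18445 genes, gave p at or under 0.05, and differences are on the log2(normalized count + 1) scale. Tgif1 averaged 964 ± 143 (SD, n = 5) in wild-type colon, 3815 ± 803 (n = 7) in Apc and 354 ± 137 (n = 7) in Apc/Tgif tumours. Tgif2 averaged 161 ± 50.1, 642 ± 92.1 and 2657 ± 352, so over the whole gene it went against the label. Which exons were deleted is not stated in the sources used here, and directions in Apc/Tgif tumours rest on the label. Rn45s, a ribosomal RNA precursor, took 9.35% of Apc/Tgif replicate 5 and 2.93% and 3.50% of wild-type replicates 2 and 4, against 0.171% to 0.700% of the other 16 libraries. Without these 3 libraries the counts of goblet cell genes called lower were the same in each comparison.

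Markers of other cell types also differed between the groups, and in bulk tissue fewer cells of a type and less RNA per cell cannot be told apart. The summed level of 15 smooth muscle genes was 249401 to 375058 normalized counts in wild-type colon, 21447 to 33022 in Apc tumours and 19202 to 31338 in Apc/Tgif tumours, with none of the 15 at 0 in a whole group. That of 25 colonocyte genes (of 26 listed), which mark the absorptive cells of the colon, was 870699 to 1201672, 150623 to 449085 and 124681 to 254605 in the same order, again with none at 0 in a whole group. Of all genes tested, 25.2% were lower and 23.9% higher in Apc tumours against wild-type colon, and 25.5% and 24.8% in Apc/Tgif tumours. Between the tumour groups 8.76% were lower and 7.88% higher. The counts of each list below stand beside these shares. Of the 24 colonocyte genes tested, 19 were lower and 2 higher in Apc tumours against wild-type colon, and 21 and 1 in Apc/Tgif tumours. Between the tumour groups 14 colonocyte genes were lower and 0 higher. Their median log2 difference between the tumour groups was -1.42, beside -1.71 for the goblet cell genes and -0.01 over all genes. The sum of 18 enteroendocrine genes was 13756 to 17951 in wild-type colon, 1226 to 14292 in Apc tumours and 936 to 12951 in Apc/Tgif tumours, with none at 0 in a whole group. Of the 17 tested, 14, 15 and 6 were lower in the 3 comparisons and 1, 1 and 0 higher, with a median of -0.90 between the tumour groups. The sum of 14 stem cell genes was 21899 to 26071, 54224 to 104813 and 82891 to 118690 in the 3 groups, and 5 of the 14 were higher and none lower between the tumour groups. All 16 pan-epithelial genes (Epcam, keratins, claudins and others) were detected. Their sum was 798678 to 946298 in wild-type colon, 406167 to 783369 in Apc tumours and 473858 to 635445 in Apc/Tgif tumours. The tumour groups overlap, and both lie below wild-type colon. Against wild-type colon 8 of the 16 were lower and 2 higher in each tumour group, and between the tumour groups none was called. The part of these shifts in the results below was not tested, except that centring every library on the pan-epithelial genes left 6, 10 and 9 of the goblet cell genes lower in the 3 comparisons.

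As a group, the goblet cell genes were lowest in Apc/Tgif tumours. Together they made up 1.54% ± 0.408 (SD, n = 5) of the library in wild-type colon, 0.460% ± 0.215 (n = 7) in Apc and 0.112% ± 0.0582 (n = 7) in Apc/Tgif tumours. The ranges of these percentages did not overlap: 1.08% to 2.19%, 0.213% to 0.782% and 0.0525% to 0.208%. In summed normalized counts the tumour groups did overlap, at 74144 to 293568 in Apc and 20232 to 76135 in Apc/Tgif tumours. The overlap came from Apc/Tgif replicate 5, whose library total was 43474139 with 9.35% in Rn45s. Apc replicate 2, the lowest Apc tumour, had a total of 34853552. Fcgbp and Clca1, with wild-type means of 196511 and 195435 normalized counts, weigh most in the wild-type sum, ahead of Muc2 with 80655.

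In Apc tumours against wild-type colon, 6 of the 10 were lower and none was higher, where 25.2% of all genes tested were lower and 23.9% higher. The 6 were Zg16, Clca1, Fcgbp, Tff3, Agr2 and Creb3l1, and in each of them every tumour lay below every wild-type library, as in 15.4% of all genes. The median log2 difference of the 10 genes was -1.44, against -0.01 over all genes. In Apc/Tgif tumours against wild-type colon all 10 were lower, where 25.5% of all genes were lower and 24.8% higher, with a median of -3.12 against 0.00 over all genes. Groups did not overlap for 9 of the 10, the exception being Spink4, as for 16.5% of all genes. In Apc/Tgif against Apc tumours 9 of the 10 were lower, where 8.76% of all genes were lower and 7.88% higher, with a median of -1.71 against -0.01, and Clca1 did not pass. Only Zg16, Spink4 and Capn9 had tumour groups that did not overlap, as did 1.77% of all genes in that direction. The comparisons share libraries: both tumour groups were set against the same wild-type colon, so their counts are not independent.

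With library totals made equal, the median of all genes moved by 0.20 and 0.15 in the comparisons with wild-type colon, and the share of calls that were lower went from 51.2% to 35.7% in Apc tumours and from 50.7% to 39.8% in Apc/Tgif tumours. Between the tumour groups it went from 52.6% to 63.1%. Centred on pan-epithelial genes the shares against wild-type colon were 35.3% and 33.8%, with shifts of the median of 0.25 and 0.29. The goblet cell genes' own medians under equal totals were -1.24, -2.97 and -1.76, and no gene of the 10 changed direction under any scaling.

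**Figure D1:**
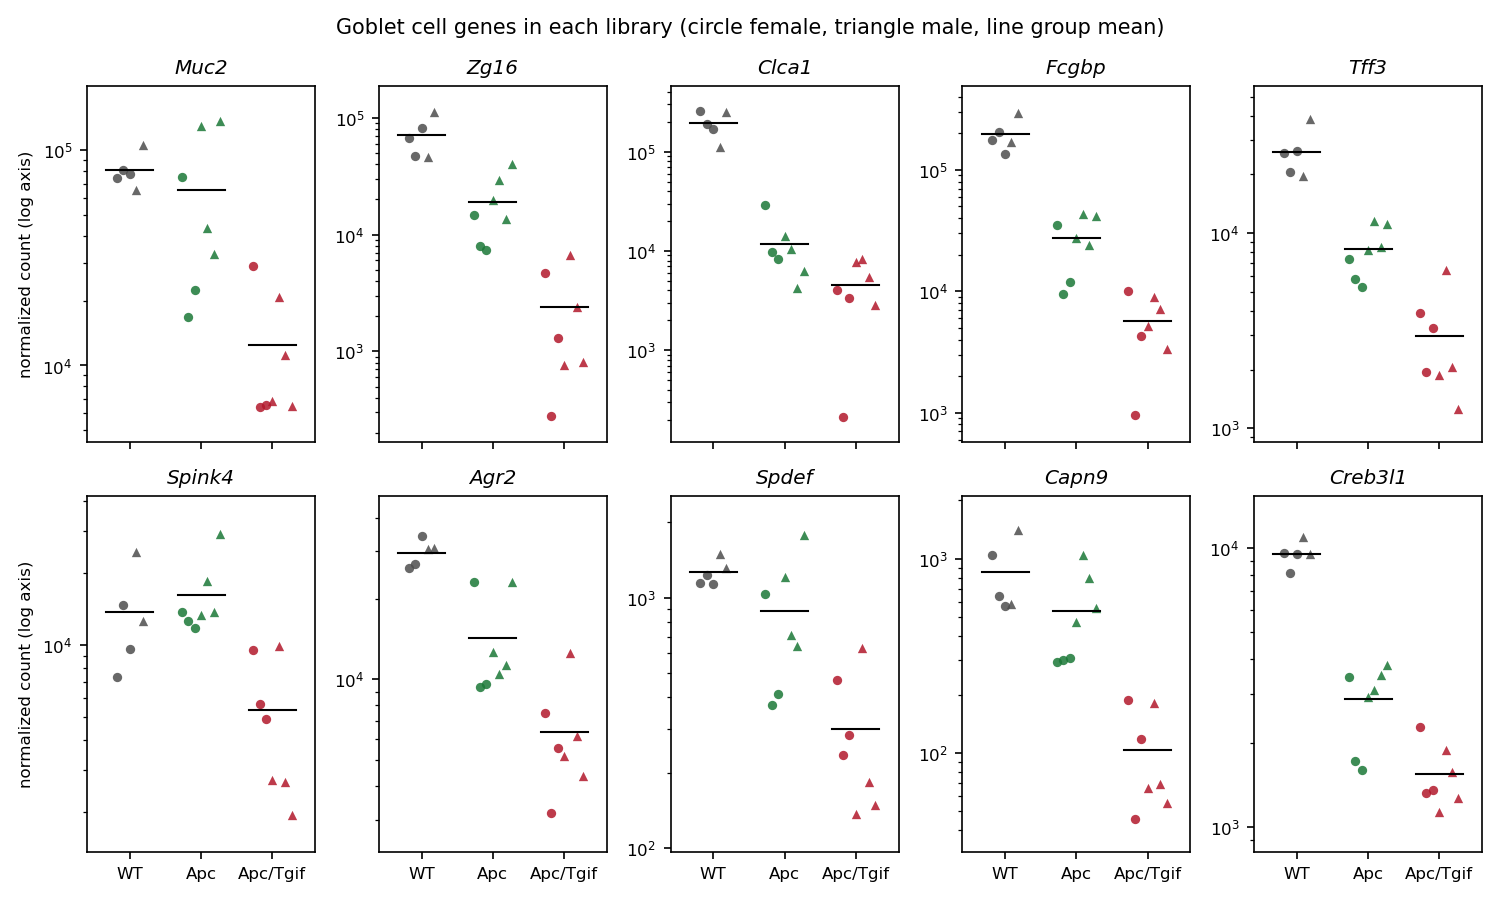
Normalized counts (log axis) of the 10 goblet cell genes in each library, by group: wild-type colon (WT), Apc tumour and Apc/Tgif tumour, with circles for females, triangles for males and a line at the group mean. All 7 Apc/Tgif tumours lie below all 5 wild-type libraries for every gene except Spink4, while single Apc tumours lie above every wild-type library for Muc2, Spdef and Spink4.

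Positions below are those of the genes in GRCm38. Muc2 (chromosome 7, 141690340 to 141754693, plus strand) encodes the mucin that forms the gel. It had 74642, 80492, 77185, 65122 and 105836 normalized counts in wild-type replicates 1 to 5. In Apc tumours the lowest, median and highest values were 16882, 43726 and 136464, and in Apc/Tgif tumours 6418, 6819 and 29004. Apc tumours spread on both sides of wild-type colon, with replicates 4 and 7 above every wild-type library and replicates 2, 3, 5 and 6 below, whereas every Apc/Tgif tumour lay below wild-type colon and only replicates 1 and 5 reached into the range of Apc tumours. Group means were 80655 ± 15195 (SD, n = 5), 65245 ± 49861 (n = 7) and 12445 ± 8969 (n = 7). Against wild-type colon Muc2 did not pass in Apc tumours, with a log2 difference of -0.76 (95% interval -1.80 to 0.27, limma adjusted p = 0.209), and it fell by 3.02 in Apc/Tgif tumours (SE 0.493, limma adjusted p = 4.26e-05). Between the tumour groups it fell by 2.26 (SE 0.446, limma adjusted p = 0.00175), or 4.79-fold. A score of 7 distal-colon Hox genes, their mean log2 value, was 9.58 to 10.44 in wild-type colon and 6.04 to 10.67 in Apc/Tgif tumours. In Apc replicates 1, 3, 4 and 7 it was 5.81, 5.33, 5.198 and 5.44. In replicates 2, 5 and 6 it was 8.85, 10.76 and 10.69. Replicates 1, 4 and 7 had the most Muc2 of the Apc tumours, whereas replicate 3 had 22411. The part of colon position in the spread of Muc2 and Spdef was not tested. With this score in the model, the difference between Apc tumours and wild-type colon passed (-1.41, limma adjusted p = 0.0271). In females alone the difference between the tumour groups did not (-1.52, limma adjusted p = 0.111).

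Fcgbp (chromosome 7, 28071236 to 28120862, plus strand) encodes a large secreted protein with von Willebrand D domains that joins the Muc2 gel. Its wild-type values were 176553, 204949.7, 135333, 170382 and 295336 normalized counts. Apc tumours gave 9432, 27502 and 43470.4 as lowest, median and highest, and Apc/Tgif tumours 952, 5189.5 and 10125. Wild-type colon stood far above both tumour groups, and the tumour groups overlapped only where Apc/Tgif replicate 1 reached past Apc replicate 2. Means were 196511 ± 60542 (SD, n = 5), 27545 ± 13438 (n = 7) and 5718 ± 3244 (n = 7). Fcgbp fell by 3.11 in Apc tumours (SE 0.447, limma adjusted p = 1.29e-05) and fell by 5.49 in Apc/Tgif tumours (SE 0.447, limma adjusted p = 8.93e-09) against wild-type colon. It fell by 2.38 between the tumour groups (SE 0.404, limma adjusted p = 0.000548), a call not made in females alone (-2.19, limma adjusted p = 0.0635).

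Clca1 (chromosome 3, 145003817 to 145032776, minus strand), a secreted metalloprotease that processes the mucus gel, had the largest difference of the 10 from wild-type colon in either tumour group. Wild-type libraries had 256749, 188719, 169215, 112534 and 249959 normalized counts. The lowest, median and highest Apc tumours had 4223, 9674 and 29223, and the Apc/Tgif tumours 212, 4063 and 8207. Every tumour was far below wild-type colon, and the tumour groups overlapped over much of their range. Clca1 belongs to a cluster of similar genes, between which reads may be split. Means were 195435 ± 59869 (SD, n = 5), 11724 ± 8319.9 (n = 7) and 4576 ± 2838 (n = 7). The gene fell by 4.31 in Apc tumours, or 19.9-fold (SE 0.678, limma adjusted p = 3.56e-05), and fell by 5.97 in Apc/Tgif tumours, or 62.7-fold (SE 0.678, limma adjusted p = 6.04e-07). Between the tumour groups the difference was -1.65 (SE 0.614, 95% interval -2.94 to -0.37) and did not pass (limma adjusted p = 0.0732). That difference depended on single libraries. Apc/Tgif replicate 2 held the lowest value, and without it the difference was -0.99 (limma adjusted p = 0.0789). It passed without Apc replicate 6 (-1.90, limma adjusted p = 0.0453) and without Apc/Tgif replicate 5 (-1.87, limma adjusted p = 0.0472).

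Zg16 (chromosome 7, 127050156 to 127087328, minus strand) encodes a small lectin-like protein of the mucus that binds the cell wall of Gram-positive bacteria. It had 66767, 46703, 81330.3, 46374 and 110766 normalized counts in wild-type colon. Apc tumours gave 7399, 14829 and 39881 as lowest, median and highest, and Apc/Tgif tumours 282, 1303 and 6619.7. The 3 groups did not overlap at all: wild-type colon was highest, Apc tumours lay between and Apc/Tgif tumours were lowest. Means were 70388 ± 26930.3 (SD, n = 5), 18967 ± 11864 (n = 7) and 2406 ± 2376 (n = 7). Zg16 fell by 2.18 in Apc tumours (SE 0.595, limma adjusted p = 0.00523) and fell by 5.60 in Apc/Tgif tumours (SE 0.595, limma adjusted p = 2.62e-07). Its difference between the tumour groups was the largest of the 10 genes: it fell by 3.42, or 10.7-fold (SE 0.539, limma adjusted p = 0.000274). In males alone the difference of Apc tumours from wild-type colon was -1.60 and did not pass (limma adjusted p = 0.160).

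Among the small secreted peptides, Tff3 (chromosome 17, 31125306 to 31129646, minus strand) is a trefoil peptide that aids repair of the epithelial surface. Wild-type libraries had 25739, 20476, 26352, 19617 and 38248 normalized counts. The lowest, median and highest values were 5270.0, 8195 and 11553 in Apc tumours and 1262, 2073 and 6468 in Apc/Tgif tumours. Both tumour groups lay below wild-type colon, and among the tumours only Apc/Tgif replicate 5 reached into the Apc range. Means were 26087 ± 7440.1 (SD, n = 5), 8263 ± 2414 (n = 7) and 2970.3 ± 1787 (n = 7). Tff3 fell by 1.70 in Apc tumours (SE 0.319, limma adjusted p = 0.000219), fell by 3.32 in Apc/Tgif tumours (SE 0.319, limma adjusted p = 6.99e-08) and fell by 1.62 between the tumour groups (SE 0.289, limma adjusted p = 0.000803). In males alone the first of these was -1.49 and just missed the threshold (limma adjusted p = 0.0527), and in females alone the last was -1.06 (limma adjusted p = 0.0139).

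Spink4 (chromosome 4, 40920052 to 40931395, plus strand), a Kazal-type serine protease inhibitor, was the only one of the 10 with a higher mean in Apc tumours than in wild-type colon. It had 7302, 14698, 9617, 24359 and 12512 normalized counts in wild-type colon, where replicate 4 stood highest. Apc tumours gave 11758, 13716 and 29154, and Apc/Tgif tumours 1936, 4882 and 9872. Apc tumours overlapped wild-type colon broadly, and every Apc/Tgif tumour lay below every Apc tumour while 2 of them reached into the wild-type range. Means were 13697 ± 6589 (SD, n = 5), 16089 ± 6142 (n = 7) and 5314 ± 3259.5 (n = 7). The difference of Apc tumours from wild-type colon was 0.28 (95% interval -0.55 to 1.10, limma adjusted p = 0.588). In Apc/Tgif tumours Spink4 fell by 1.50 against wild-type colon (SE 0.393, limma adjusted p = 0.00365) and fell by 1.77 against Apc tumours (SE 0.356, limma adjusted p = 0.00203). In females alone these differences were -0.66, which did not pass (limma adjusted p = 0.0878), and -0.99 (limma adjusted p = 0.0328), and in males alone the first was -2.35 (limma adjusted p = 0.00840). Spink4 is also known from Paneth cells, the antimicrobial secretory cells that normal colon lacks. The summed level of 12 measured Paneth cell genes was 1662 to 3292 normalized counts in wild-type colon, where Defa17, Defa20, Defa21, Defa26 and Habp2 were listed at 0, 21906 to 170102 in Apc tumours and 29851 to 159029 in Apc/Tgif tumours. Of these genes 11 were higher in each tumour group than in wild-type colon and none was called between the tumour groups. Of all genes tested, 23.9% were higher in Apc tumours and 24.8% in Apc/Tgif tumours than in wild-type colon. The part of Paneth-like cells in the Spink4 level was not tested.

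Agr2 (chromosome 12, 35992907 to 36004087, plus strand) encodes a protein disulfide isomerase of the endoplasmic reticulum that is needed to make Muc2. It had 26051, 26851, 34166, 30484 and 30917 normalized counts in wild-type colon, within a 1.31-fold range. Apc tumours ranged from 9375 over a median of 11329.7 to 23123, and Apc/Tgif tumours from 3192 over 5574 to 12538. Wild-type colon was above all tumours, and the tumour groups overlapped through Apc/Tgif replicate 5. Means were 29694 ± 3297 (SD, n = 5), 14244 ± 6157 (n = 7) and 6353 ± 3041 (n = 7). Agr2 fell by 1.19 in Apc tumours (SE 0.284, limma adjusted p = 0.00191), fell by 2.37 in Apc/Tgif tumours (SE 0.284, limma adjusted p = 1.09e-06) and fell by 1.18 between the tumour groups (SE 0.257, limma adjusted p = 0.00366).

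Capn9 (chromosome 8, 124576111 to 124618731, plus strand), a calcium-dependent cysteine protease of the digestive tract, had the lowest level of the 10 per kilobase of exon. Wild-type libraries had 1048, 647, 572, 588 and 1415 normalized counts. Apc tumours gave 293, 475 and 1052 as lowest, median and highest, and Apc/Tgif tumours 45.7, 69.0 and 187. Apc tumours overlapped wild-type colon, with the 3 females lowest among them, and Apc/Tgif tumours lay below both groups. Means were 854 ± 369 (SD, n = 5), 540.4 ± 289.6 (n = 7) and 103 ± 59.7 (n = 7). The difference in Apc tumours was -0.80 (95% interval -1.61 to 0.02) and did not pass (limma adjusted p = 0.0985), but it did in females alone (-1.27, limma adjusted p = 0.0432), with only the 2 groups in the fit (-0.87, limma adjusted p = 0.0181) and with library quality weights (-0.87, limma adjusted p = 0.0255). Capn9 fell by 3.21 in Apc/Tgif tumours against wild-type colon (SE 0.390, limma adjusted p = 1.24e-06) and fell by 2.41, or 5.33-fold, against Apc tumours (SE 0.353, limma adjusted p = 0.000140). In females alone the latter was -1.57 (limma adjusted p = 0.0308).

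Of the transcription factors, Spdef (chromosome 17, 27714352 to 27728955, minus strand) is the Ets factor that drives goblet and Paneth cell maturation. It had 1149, 1231, 1130.0, 1496 and 1320.3 normalized counts in wild-type colon. The lowest, median and highest values were 374, 708 and 1788 in Apc tumours and 137, 236 and 629.8 in Apc/Tgif tumours. As with Muc2, Apc tumours lay on both sides of wild-type colon, with replicate 7 above all wild-type libraries, and Apc/Tgif tumours lay below wild-type colon and overlapped the lower Apc tumours. Means were 1265 ± 149 (SD, n = 5), 882 ± 504 (n = 7) and 298 ± 185 (n = 7). Spdef did not pass in Apc tumours (-0.75, 95% interval -1.58 to 0.08, limma adjusted p = 0.126), and fell by 2.32 in Apc/Tgif tumours against wild-type colon (SE 0.396, limma adjusted p = 6.83e-05) and fell by 1.58 against Apc tumours (SE 0.358, limma adjusted p = 0.00506). The first difference passed in 4 other settings, among them the Hox score in the model (-1.19, limma adjusted p = 0.0274), and the last was lost in females alone (-0.78, limma adjusted p = 0.155).

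Creb3l1 (chromosome 2, 91982328 to 92024502, minus strand) encodes a transcription factor held in the membrane of the endoplasmic reticulum, which is cleaved to reach the nucleus and acts in secretory cells. Its wild-type values were 9599, 8130.5, 9562, 10974 and 9553 normalized counts, within a narrow range. Apc tumours ranged from 1597 over 3113 to 3819, and Apc/Tgif tumours from 1134 over 1359.7 to 2287. All tumours lay far below wild-type colon, and the tumour groups overlapped at the level of Apc replicates 2 and 3. Means were 9564 ± 1006 (SD, n = 5), 2878 ± 880.2 (n = 7) and 1549 ± 407 (n = 7). Creb3l1 fell by 1.84 in Apc tumours (SE 0.209, limma adjusted p = 7.78e-07) and fell by 2.70 in Apc/Tgif tumours (SE 0.209, limma adjusted p = 4.53e-09), the smallest p of the 10 in both comparisons. Between the tumour groups it fell by 0.86 (SE 0.189, limma adjusted p = 0.00384), the smallest difference of the 10, and in females alone this was -0.40 and did not pass (limma adjusted p = 0.344).

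**Figure D2:**
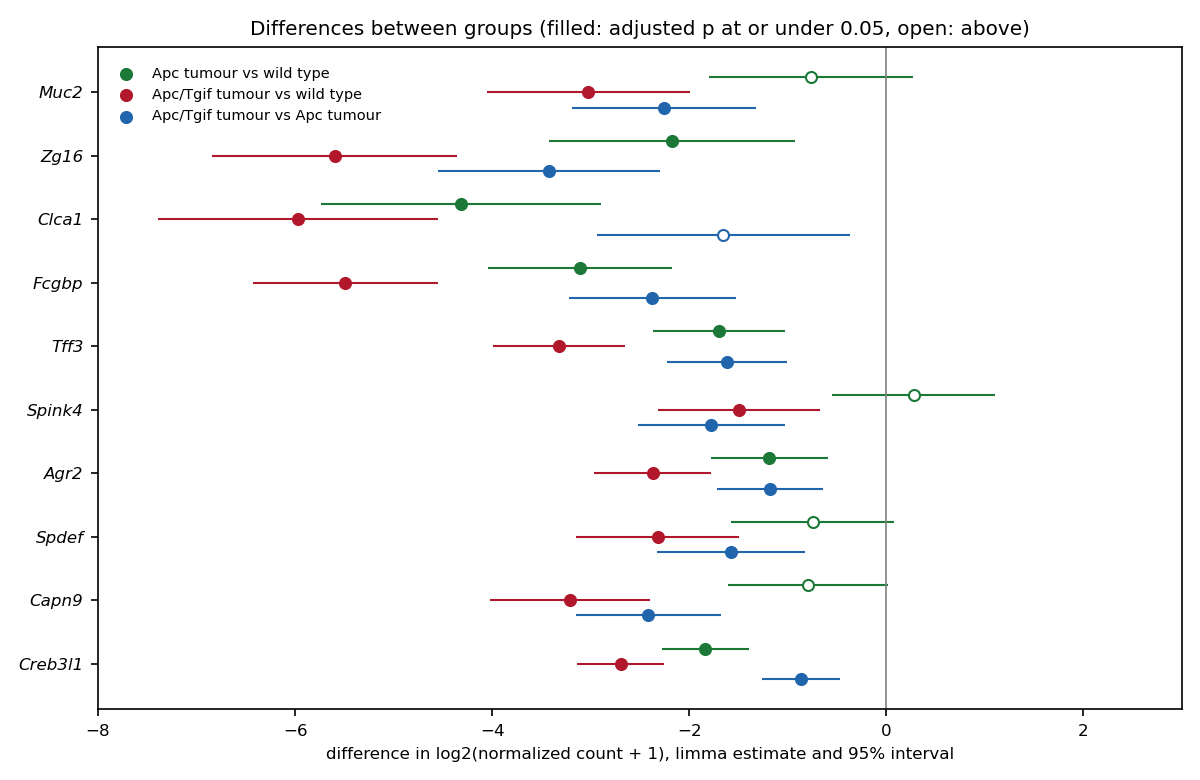
Differences in log2(normalized count + 1) between groups for the 10 goblet cell genes, as limma estimates with 95% intervals; filled points have an adjusted p at or under 0.05. All 10 points of Apc/Tgif tumour against wild type are filled, from -1.50 for Spink4 to -5.97 for Clca1, and 4 of Apc tumour against wild type are open.

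The genes did not change in equal measure, so their makeup differed between groups. Per kilobase of annotated exon, the level of Zg16 in wild-type colon was 55997 ± 21424 normalized counts (SD, n = 5), that of Tff3 52914 ± 15091 and that of Clca1 51744 ± 15851, which did not differ beyond their spread. They were followed by Spink4 (28716 ± 13813), Agr2 (23001 ± 2554), Fcgbp (18721 ± 5768) and Muc2 (11317 ± 2132), with Spink4, Agr2 and Fcgbp within their spread of their neighbours, and Creb3l1, Spdef and Capn9 were far lower. The exonic length used for Muc2, 7127 bases, is that of the annotation, and a longer transcript would lower its level per kilobase. In both tumour groups Spink4 led, with 33729 ± 12877 per kilobase in Apc tumours and 11139 ± 6833 in Apc/Tgif tumours (SD, n = 7 each), ahead of Tff3 with 16761 ± 4897 and 6025 ± 3625. Capn9 was lowest in all groups, and Spdef next.

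Taken as shares of the summed level per kilobase of the 10 genes, Spink4 made up 12.3% ± 7.29 (SD, n = 5) in wild-type colon, 37.0% ± 6.23 (n = 7) in Apc and 38.6% ± 10.8 (n = 7) in Apc/Tgif tumours. Every tumour of either group exceeded the highest wild-type share, 24.1%. Clca1 went the other way, from 20.9% ± 5.26 to 3.59% ± 2.32 and 4.89% ± 3.59, with the lowest wild-type share at 14.1% and the highest tumour share at 11.4%. The share of Zg16 was 22.1% ± 4.81 in wild-type colon, 15.1% ± 4.33 in Apc and 5.76% ± 3.22 in Apc/Tgif tumours, where the last group lay below the other groups. The shares of Tff3 were close, at 21.2% ± 2.03, 18.6% ± 3.20 and 21.1% ± 2.90, and that of Agr2 was 9.52% ± 1.71, 12.1% ± 3.37 and 18.6% ± 5.07. Shares sum to a whole, so each moves with the others.

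**Figure D3:**
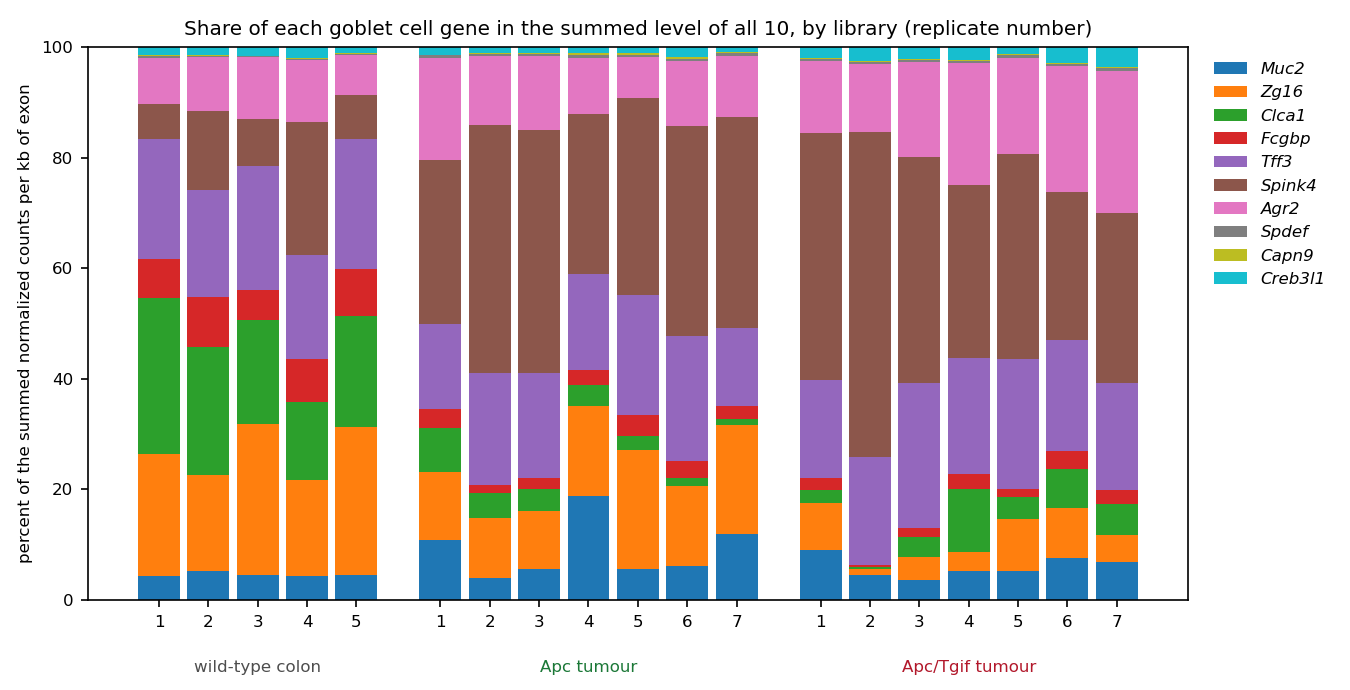
Share of each of the 10 goblet cell genes in their summed normalized counts per kilobase of exon (percent), 1 bar per library with its replicate number. Spink4 takes 6.36% to 24.1% in wild-type colon and 26.7% or more in every tumour, while Clca1 drops from at least 14.1% to at most 11.4%.

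Ratios to Muc2 within a library do not depend on how libraries are scaled. Clca1 had 1.73 to 3.44 normalized counts per count of Muc2 in wild-type colon, 0.0459 to 0.573 in Apc tumours and 0.0332 to 1.15 in Apc/Tgif tumours, with medians of 2.34, 0.239 and 0.437. For Fcgbp the ratio was 1.75 to 2.79, 0.213 to 0.994 and 0.148 to 0.761, and for Zg16 0.580 to 1.05, 0.152 to 0.671 and 0.0441 to 0.320. Of the 9 ratios, those of Clca1 and Fcgbp lay below wild-type colon without overlap in Apc tumours, as did 2.54% of the ratios of all genes to Muc2. In Apc/Tgif tumours those of Zg16, Clca1 and Fcgbp did, against 0.672% of all genes, and between the tumour groups none of the 9 did, against 0.0217%. None of the 9 lay above without overlap, where 6.87%, 77.7% and 6.78% of all genes did in the 3 comparisons. Muc2 was itself lower in Apc/Tgif tumours, and a gene that stays level then rises against it. The shares of ratios above are raised by this and those below are lowered. The ratio of Spdef to Muc2, 0.0125 to 0.0230 in wild-type colon and 0.00943 to 0.0222 in Apc tumours, covered much the same range in both, and was 0.0163 to 0.0434 in Apc/Tgif tumours.

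Values spread widely among tumours of the same genotype. The SD of log2 values within a group had a median over the 10 genes of 0.400 in wild-type colon, 0.777 in Apc and 0.869 in Apc/Tgif tumours, against 0.279, 0.358 and 0.380 over all genes tested. In Apc tumours the highest library exceeded the lowest 8.08-fold for Muc2 and 2.19-fold for Tff3, and in Apc/Tgif tumours 38.7-fold for Clca1 and 2.02-fold for Creb3l1. The same libraries stood high or low for most genes. Apc/Tgif replicate 5 was among the top 2 of its group for all 10 genes and replicate 1 for 9, while replicate 7 was among the bottom 2 for 9 and replicate 2 was the lowest for 6. Among Apc tumours replicate 7 was among the top 2 for 8 genes, and replicates 2 and 3 were among the bottom 2 for 9 and 8. Apc/Tgif replicate 5 is also the library richest in Rn45s.

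Deviations of each library from the mean of its group and sex were correlated between the genes, as a description over 19 libraries that share their depth and scaling. Pearson's r over the 45 pairs ran from 0.164 for Clca1 with Spink4 to 0.918 for Agr2 with Spdef. Against the mean of the other 9 genes, r was highest for Zg16 (0.927) and lowest for Spink4 (0.573). Outside the 10 genes, 12164 others whose mean reached 100 normalized counts were ranked by r with the mean deviation of the 10. The 8 most alike were Slc2a10 (0.956), a member of the glucose transporter family, Edem1 (0.928), which sends misfolded glycoproteins to degradation, Atoh1 (0.924), Slc12a8 (0.916), a member of the cation-chloride cotransporter family, Dpagt1 (0.914), the first enzyme of N-glycan assembly, Kdelr2 (0.914), a receptor that returns proteins to the endoplasmic reticulum, Slc38a7 (0.898), an amino acid transporter, and Jmjd8 (0.892).

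These 8 genes vary with the goblet cell genes in deviations pooled over the 3 groups, and r was not computed in each group alone. Mean deviations of the 10 genes ran from -1.07 to 1.11 in Apc/Tgif tumours. In Apc tumours they ran from -0.443 to 0.706, and in wild-type colon from -0.241 to 0.241. Between groups the calls of the 8 genes differed in direction. Slc12a8 had means of 1601, 1117 and 363 normalized counts and Slc2a10 275, 213 and 101. Slc12a8 fell by 1.68 between the tumour groups (limma adjusted p = 0.00172) and Slc2a10 fell by 1.24 (limma adjusted p = 0.0112). Dpagt1 had means of 1772, 1783 and 1859.7 and was not called in any comparison (limma adjusted p = 0.906, 0.905 and 0.855). Slc38a7 was higher than in wild-type colon in both tumour groups, opposite to the goblet cell genes called there: it rose by 0.41 in Apc tumours (limma adjusted p = 0.00862) and by 0.33 in Apc/Tgif tumours (limma adjusted p = 0.0275).

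**Figure D4:**
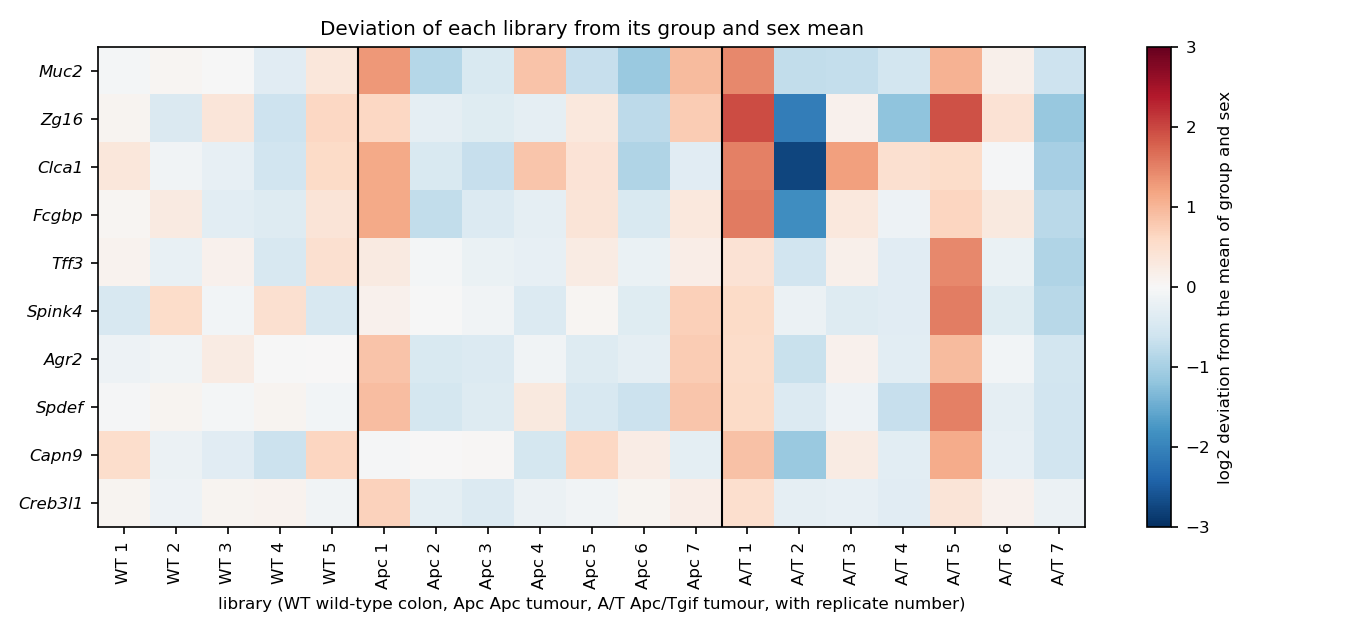
Deviation of each library from the mean of its group and sex, in log2 units, for the 10 goblet cell genes; red is above and blue below. Apc/Tgif replicates 1 and 5 are above for all 10 genes and replicates 2 and 7 below for all 10. Averaged over the 10 genes, wild-type deviations run from -0.241 to 0.241. The 2 wild-type males are centred on their own mean, so their deviations are equal and opposite.

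Whether the genotype differences depended on sex was tested as an interaction, with the female effect subtracted from the male one. None of the 10 genes passed in any comparison, where 0.0108% of all genes passed for Apc tumours against wild-type colon, 3.40% for Apc/Tgif tumours against the same wild-type libraries and 23.6% between the tumour groups. In the last comparison Clca1 came nearest, at 2.73 (SE 1.10, limma adjusted p = 0.0798). Its log2 difference between the tumour groups was -3.21 in females alone (limma adjusted p = 0.0405) and -0.49 in males alone (limma adjusted p = 0.485). The estimates for Spink4 (-1.38, SE 0.626), Capn9 (-1.47, SE 0.654), Spdef (-1.39, SE 0.678) and Creb3l1 (-0.81, SE 0.346) were of the opposite sign, a larger difference in males, with limma adjusted p = 0.118, 0.112, 0.145 and 0.0989. Those for Muc2 (-1.30), Tff3 (-0.97), Zg16 (-0.75) and Fcgbp (-0.33) had this sign too, and that for Agr2 (0.24) had the sign of Clca1. With 3 females and 4 males in each tumour group, such interactions were estimated with wide errors. The group differences given above come from a fit whose sex term is the same in all groups.

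Other products of goblet cells were called lower more often than higher. Of 25 such genes 23 were tested, and 13 were lower and 2 higher in Apc tumours against wild-type colon, with a median log2 difference of -0.93 against -0.01 over all genes. In Apc/Tgif tumours against wild-type colon 18 were lower and 2 higher (median -1.71 against 0.00). Between the tumour groups 11 were lower and 1 higher (median -0.76 against -0.01). The shares of all genes lower and higher were 25.2% and 23.9%, 25.5% and 24.8%, and 8.76% and 7.88% in the same order. Klk1, a kallikrein protease, averaged 37711 ± 4778 (SD, n = 5), 4751 ± 2039 (n = 7) and 1653 ± 985 (n = 7) normalized counts in wild-type colon, Apc and Apc/Tgif tumours, and fell by 1.62 between the tumour groups (SE 0.310, limma adjusted p = 0.00137). Sytl4, which acts in granule exocytosis, had means of 391, 239 and 84.2, and Kcnk6, a potassium channel, 1533, 1236 and 539. Sytl4 fell by 1.62 between the tumour groups (limma adjusted p = 0.000116) and Kcnk6 fell by 1.20 (limma adjusted p = 0.000213). Slc12a2, a chloride cotransporter that crypt cells also express, rose by 0.84 from 25740.1 to 45002 (limma adjusted p = 0.00122). Tff1, the trefoil peptide of the stomach, averaged 20.4 in Apc and 6.62 in Apc/Tgif tumours, and every wild-type library listed it at 0.

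Mucins other than Muc2 were called in both directions. Of 15 listed, 7 were tested: in Apc tumours against wild-type colon 2 were lower and 3 higher, in Apc/Tgif tumours 3 lower and 2 higher, and between the tumour groups 1 was lower and none higher. The shares of all genes lower and higher were 25.2% and 23.9%, 25.5% and 24.8%, and 8.76% and 7.88%, and with 7 genes the counts are too small to set apart from them. Muc3, which is also on the colonocyte list, and Muc13, transmembrane mucins of absorptive cells, had means of 124267, 13448 and 4375 and of 125690.3, 63769 and 79336 normalized counts. Muc3 fell by 1.44 between the tumour groups (SE 0.390, limma adjusted p = 0.0156), while Muc13 differed by 0.32 (limma adjusted p = 0.115). Muc6, a gel-forming mucin of gastric glands, rose from 29.3 in wild-type colon to 755 in Apc tumours (limma adjusted p = 1.39e-05) and 1123 in Apc/Tgif tumours (limma adjusted p = 1.07e-06).

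Factors that set secretory fate were called in both directions. Of 25 tested, 6 were lower and 8 higher in Apc tumours against wild-type colon, close to the 25.2% and 23.9% of all genes. In Apc/Tgif tumours 9 were lower and 11 higher (25.5% and 24.8% of all genes), and between the tumour groups 5 were lower and 5 higher (8.76% and 7.88%). Medians were -0.06, -0.14 and 0.16, against -0.01, 0.00 and -0.01 over all genes. Atoh1, the factor that opens the secretory lineage, averaged 2024 ± 378 (SD, n = 5), 706 ± 231 (n = 7) and 299.9 ± 157 (n = 7) normalized counts in wild-type colon, Apc and Apc/Tgif tumours. It fell by 2.95 in Apc/Tgif tumours against wild-type colon (limma adjusted p = 4.22e-07) and fell by 1.34 between the tumour groups (SE 0.296, limma adjusted p = 0.00418). Neurog3, the factor of enteroendocrine cells, had means of 63.8, 14.5 and 3.20 and fell by 1.86 between the tumour groups (limma adjusted p = 0.00722). Hes1, the Notch target that represses Atoh1, rose by 0.51 between the tumour groups (limma adjusted p = 0.00372), from 2756 to 3967, and the Notch ligand Dll4 by 0.60 (limma adjusted p = 0.00284).

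Genes listed for mucin glycosylation, enzymes together with some transporters such as Slc35a1 and Slc17a5, were lower more often than higher. Of 34 tested, 17 were lower and 5 higher in Apc tumours against wild-type colon, where 25.2% and 23.9% of all genes were. In Apc/Tgif tumours 16 were lower and 5 higher (25.5% and 24.8% of all genes), and between the tumour groups 8 were lower and 2 higher (8.76% and 7.88%). Medians were -0.39, -0.76 and -0.28, against -0.01, 0.00 and -0.01 over all genes. The sulfotransferase Chst4 had means of 2786, 1018 and 304 normalized counts and fell by 1.89 between the tumour groups (SE 0.301, limma adjusted p = 0.000287). Gcnt3, which branches O-glycans, had 2617, 2383 and 629.6 and fell by 1.90 (SE 0.406, limma adjusted p = 0.00332). St6galnac1, the sialyltransferase that caps the first O-linked sugar, was lower in Apc tumours than in wild-type colon and higher in Apc/Tgif than in Apc tumours. It had a median of 76.1 in wild-type colon with replicates from 56.6 to 891, from 3.10 to 22.8 in Apc tumours and from 121 to 971 in Apc/Tgif tumours. It fell by 3.25 in Apc tumours (SE 0.658, limma adjusted p = 0.000454) and rose by 4.76 between the tumour groups (SE 0.595, limma adjusted p = 3.60e-05), with no overlap in either comparison.

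Genes listed for folding and disulfide formation in the endoplasmic reticulum mostly did not pass. The list also holds stress sensors (Ern1, Atf6), translocation genes (Sec61b, Ssr4) and degradation factors such as Edem1 and Sel1l. Of 31 tested, 6 were lower and 1 higher in Apc tumours against wild-type colon, 8 lower and 1 higher in Apc/Tgif tumours, and 4 lower and 2 higher between the tumour groups. The shares of all genes that were lower were 25.2%, 25.5% and 8.76%, so the counts lower are near or under the background in both comparisons with wild-type colon. The shares of all genes that were higher were 23.9%, 24.8% and 7.88%. Medians were -0.01, -0.20 and -0.25, against -0.01, 0.00 and -0.01 over all genes. Of the thiol oxidases, Ero1l fell by 0.88 between the tumour groups (SE 0.141, limma adjusted p = 0.000297) and Ero1lb fell by 0.53 (SE 0.129, limma adjusted p = 0.00749). Their means were 3742, 4361 and 2327 for Ero1l and 963, 550.1 and 378 for Ero1lb. P4hb, a protein disulfide isomerase, rose against wild-type colon, from 22102 to 30914 in Apc tumours (limma adjusted p = 0.00230) and 36802 in Apc/Tgif tumours (limma adjusted p = 2.99e-05).

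**Figure D5:**
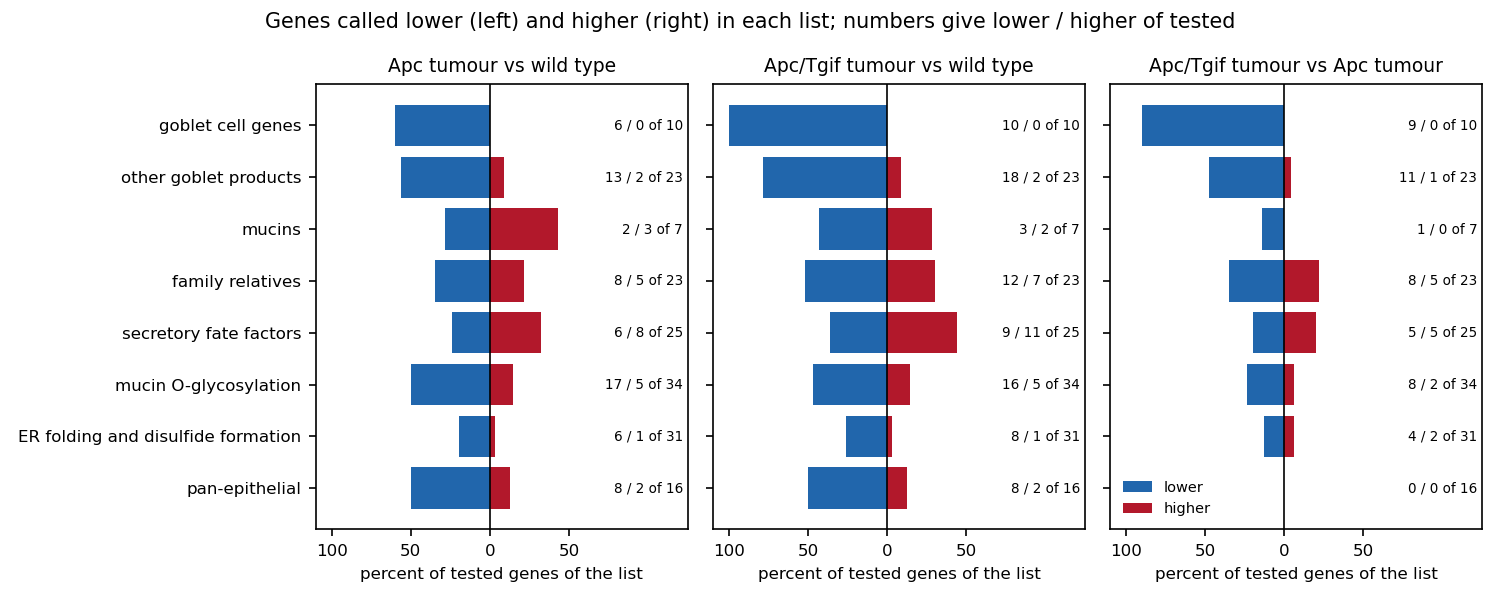
Percent of the tested genes of each list called lower (left, blue) and higher (right, red) in each comparison, with the counts at the right. The 10 goblet cell genes have 6, 10 and 9 lower and none higher, and pan-epithelial genes have none called between the tumour groups.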

How the data were processed

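Poly-A RNA was read from a single end over 75 bases, per the labels' protocols. The deposited table holds 1 signal per gene and library, the authors' normalized count: a count divided by that library's size factor. The submitters' processing notes name Salmon, DESeq2 and the mouse build GRCm38 (mm10). Versions, annotation and strand use are not stated, so overlapping antisense genes cannot be told apart. Between 83.1% and 86.7% of low values were whole multiples of a step per library, within 0.1 of a step. Whole reads could thus not be recovered, and a test of log values took the place of a count model.

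Genes with at least 10 normalized counts in at least 5 libraries were tested on log2(normalized count + 1) with limma 3.58.1 (R 4.3.3), using an intensity trend, robust moderation and, over all 19 libraries, terms for group and for sex. Benjamini-Hochberg adjustment ran over 18445 genes, with a two-sided threshold of 0.05. Folds understate the change of low genes. The steps were tested on simulated data.

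Replicates are separate mice. The 10 genes, the gene lists and the tests were chosen with earlier results of these data known. Named genes are the 10, Tgif1 and Tgif2, up to 4 genes of each described list with the smallest p in a comparison, and the 8 genes closest in deviations; predicted genes, clone names and immunoglobulin segments were left out of these 8. Positions and exon lengths are those of the GENCODE M21 annotation of GRCm38, and promoters are from RefSeq. Protein sequences were not used here. Alternatives were another pseudocount (10), no filter, other scalings, other models, each sex alone and leaving out each library. Equal totals without Rn45s and leaving out the 3 libraries richest in it were added after seeing the data.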

Additional observations from a re-analysis of the deposited data

Results flagged for a closer look

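Among the 30 sets of values of 1 goblet cell gene in 1 group, 1 held a library far from the others. Clca1 had 212 normalized counts in Apc/Tgif replicate 2, the lowest of 7, and the gap to the next library was 0.709 of the group's range on the log2 scale, past the critical 0.568. By chance about 1 in 20 such sets would be marked. The same library was lowest of its group for 6 of the 10 genes.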

How the results depend on the processing

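No difference of the 10 goblet cell genes changed sign under any setting run. Values of the other named genes were not compared across settings. The goblet cell genes called lower numbered 4 to 8 in Apc tumours against wild-type colon, 9 to 10 in Apc/Tgif tumours against wild-type colon and 6 to 10 between the tumour groups over all settings. Leaving out each library in turn gave 6, 10, and 9 to 10. In females alone they numbered 8, 9 and 6, and in males alone 4, 10 and 9. The number of all genes called lower also moved with the setting. It was 2653 to 5663, 3006 to 5483 and 960 to 2201 in the same comparisons over all settings. Over all genes, leaving out each library gave 3994 to 4709 lower and 3933 to 4486 higher in the first comparison, 4099 to 4758 and 4146 to 4823 in the second, and 1322 to 1807 and 1189 to 1641 in the third. Centred on pan-epithelial genes, 2870 genes were lower in Apc tumours against wild-type colon (4639 as deposited), 3006 in Apc/Tgif tumours (4708), and between the tumour groups 960 were lower and 933 higher (1615 and 1453). In males alone 2653 were lower in the first comparison. The cause of these shifts was not tested. The labels give no replicate numbers, and those used here follow the order of the samples within each group. No paired analysis was run, since the libraries are from separate mice and the labels used here give no pairs. Depth limits the genes near 10 normalized counts, not the 10 described here.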

Other observations

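Relatives of the goblet cell genes by family, 23 of 27 tested, were called in both directions. Between the tumour groups 8 were lower and 5 higher, where 8.76% and 7.88% of all genes were, with a median log2 difference of -0.49 against -0.01 over all genes. Agr3, the closest relative of Agr2, averaged 9.37 ± 4.52 (SD, n = 5), 19.7 ± 16.6 (n = 7) and 284 ± 153 (n = 7) normalized counts in wild-type colon, Apc and Apc/Tgif tumours. It rose by 3.90 between the tumour groups (SE 0.485, limma adjusted p = 3.20e-05) while Agr2 fell by 1.18. Clca4b, a relative of Clca1 in the same gene cluster (reads may be split between its members), went from 1665 in wild-type colon to 21562 in Apc tumours, a rise of 3.99 (limma adjusted p = 2.78e-06), in the comparison where Clca1 fell by 4.31. Clca4a had means of 16102, 14675 and 751 and fell by 4.47 between the tumour groups (SE 0.506, limma adjusted p = 1.47e-05). Creb3l3, a relative of Creb3l1, had means of 293, 305 and 21.3 and fell by 3.51 between the tumour groups (limma adjusted p = 0.000795). Zan, which like Fcgbp holds von Willebrand D domains, had means of 3290.5, 347 and 109 and fell by 5.27 in Apc/Tgif tumours against wild-type colon (limma adjusted p = 2.70e-07).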
